A study of Rattus norvegicus with 6 samples.

Results

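Among the 17833 genes of the deposited table, 7 genes that serve as markers of lymphatic endothelium were examined. Their level was given as FPKM, the number of sequenced fragments scaled to the length of the gene and the size of the library. The members were picked by symbol, namely Prox1, Foxc2, Ccbe1, Reln, Mmrn1, Lyve1 and Stab2. Wild-type Sprague-Dawley rats underwent bilateral pulmonary vein banding (BPVB, n = 3) or a sham operation without banding (n = 3) at postnatal day 1, and in both groups the chest was opened under anesthesia by cooling and sutures were placed at the PVs. PVs of the right upper lobe were taken at postnatal day 21, 1 rat per library. The sex of the rats is not given in the sources used here, and the tissue was not sorted, so that markers of heart muscle and of lung epithelium were measured in it too. The libraries held 23439506 to 29725808 fragments, with BPVB totals averaging 1.16 times those of the sham group.

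Lymphatic endothelial cells line the vessels that return fluid and leukocytes from tissues to the blood. They arise mainly from vein endothelium when the transcription factor Prox1 is switched on, and they grow toward the ligand VEGF-C, which acts on the receptor encoded by Flt4. Around PVs, lymphatic vessels run in the adventitia and in the connective tissue between the lung and the heart.

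Of the 7 genes, 4 rose after banding (Prox1, Ccbe1, Reln and Mmrn1), Lyve1 fell, Foxc2 did not pass the test, and Stab2 was below the filter on low values. The 5 genes that passed had an adjusted p under 0.05 (limma on log2(FPKM + 0.5), Benjamini-Hochberg adjustment), as did 31.5% of the 15150 genes tested. With 17.2% of all tested genes higher and 14.3% lower, 4 of the 6 tested members were higher and 1 was lower. The 6 tested members had a mean above the filter of 0.1 FPKM in each group. In bulk tissue, changes in the number of lymphatic endothelial cells, in the RNA per cell and in the tissue sampled cannot be told apart. Markers of alveolar epithelium, for example, summed to 644 to 699 FPKM in the BPVB group and 138 to 143 in the sham group.

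Other defining genes of lymphatic endothelium were looked up beside the members. Ccl21, the chemokine that guides dendritic cells into lymphatic vessels, Flt4 and Pdpn (podoplanin, a surface glycoprotein) were measured in all 6 libraries. In unsorted tissue their presence does not test the name of the group. Ccl21 (log2 fold change 2.11) and Pdpn (2.04) rose, and Flt4 (0.12) did not pass. Stab2 was the gene of the group at or near 0. Of the 7 members, Prox1, Foxc2 and Ccbe1 carried a GO term on lymph vessels in the deposited annotation, and the other 4 did not.

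RefSeq promoter windows (assembly GRCr8, 250 bases before to 50 bases after a transcript start) were found for 4 of the 7 genes. Mmrn1, which rose, and Lyve1, which fell, are shown because these lymphatic genes moved in opposite directions. Reln, which rose, is shown as the promoter of another kind. Capitals mark AGGAAG or its reverse complement, a core letter string of ETS factors, the family that includes the endothelial factor Erg.
Mmrn1, chr4:91233166-91233465, plus strand: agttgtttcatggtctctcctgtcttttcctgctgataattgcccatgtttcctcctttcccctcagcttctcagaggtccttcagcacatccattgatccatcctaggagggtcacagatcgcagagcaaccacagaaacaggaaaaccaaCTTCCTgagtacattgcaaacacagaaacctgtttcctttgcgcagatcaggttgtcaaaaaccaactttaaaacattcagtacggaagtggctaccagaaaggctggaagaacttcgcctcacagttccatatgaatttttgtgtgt
Lyve1, chr1:174410928-174411227, minus strand: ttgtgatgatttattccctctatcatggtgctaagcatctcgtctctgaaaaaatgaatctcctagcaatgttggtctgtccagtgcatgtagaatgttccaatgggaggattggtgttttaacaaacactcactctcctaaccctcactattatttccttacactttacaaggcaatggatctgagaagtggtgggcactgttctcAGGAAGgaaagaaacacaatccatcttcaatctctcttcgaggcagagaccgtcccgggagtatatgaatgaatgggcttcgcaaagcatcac
Reln, chr4:13628318-13628617, plus strand: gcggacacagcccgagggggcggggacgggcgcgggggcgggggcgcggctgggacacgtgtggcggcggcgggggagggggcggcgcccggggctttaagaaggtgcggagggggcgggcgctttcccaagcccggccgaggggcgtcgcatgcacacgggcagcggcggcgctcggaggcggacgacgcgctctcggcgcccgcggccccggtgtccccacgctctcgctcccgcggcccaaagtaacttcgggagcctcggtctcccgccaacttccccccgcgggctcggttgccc
The string lay 98 bases before the start in Mmrn1 and 43 bases before it in Lyve1, and it was not in the Reln window. In Stab2, whose window is not printed, it lay 72 bases before the start, so that 3 of the 4 windows held it. It was searched on both strands and stood in 34.5% of the 33469 promoter windows of the table, a share that covers many genes of other kinds. Searched likewise, AACAAT, a core string of SOX factors such as Sox18, was in none of the 4 windows and in 11.7% of all windows of the table. The forkhead string GTAAACA was also in none of the 4 and in 3.78% of all windows. The Reln window was rich in CpG, with 79.0% G and C and 47 CpG sites. The Mmrn1 window had 45.0% G and C and 4 CpG sites, and the Lyve1 window 43.3% and 5. The median G and C content over all windows was 51.7%. The genes that rose therefore included both a CpG-rich and a CpG-poor promoter.

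Prox1 (NCBI Gene 305066) encodes the homeobox transcription factor that sets and keeps lymphatic identity. Its FPKM was 2.11, 2.40 and 1.93 after banding against 0.805, 0.703 and 0.813 after sham surgery. All BPVB values lay above all sham values. The BPVB mean of 2.15 ± 0.23 was 2.78 times the sham mean of 0.774 ± 0.062 (SD, n = 3 each). On log2(FPKM + 0.5) this was a change of 1.05 (standard error 0.12, 95% confidence interval 0.77 to 1.33, adjusted p = 2.5e-04, limma). The values rested on 233, 258 and 237 fragments after banding against 79, 68 and 80 after sham surgery. At such low FPKM the pseudocount shrinks the fold change, and limma-voom on the recovered fragments gave 1.46 (standard error 0.24, adjusted p = 3.7e-06). A gene counted as differentially expressed (DEG) when its log2 fold change also lay above 1 or below -1. Prox1 and Mmrn1 were DEGs, as were 3.27% of the genes tested (2.24% as higher DEGs). Prox1 was no longer a DEG with a pseudocount of 1 (log2 fold change 0.83), after quantile normalization (0.96) and without BPVB replicate 2 (0.99).

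Foxc2 (NCBI Gene 171356) encodes a forkhead transcription factor of lymphatic valves and collecting vessels. Its FPKM was 8.19, 7.36 and 9.06 after banding against 6.66, 7.67 and 7.59 after sham surgery. The groups overlapped, since BPVB replicate 2 lay below sham replicates 2 and 3. The log2 fold change was 0.15 (95% confidence interval -0.06 to 0.37, adjusted p = 0.25, limma), an interval that includes 0. Foxc2 is also made by mesenchymal cells of vessel walls.

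Ccbe1 (NCBI Gene 361341) encodes a secreted protein that helps the protease Adamts3 to activate VEGF-C. Its FPKM was 1.5, 1.47 and 1.48 after banding against 0.663, 0.423 and 0.676 after sham surgery. The BPVB libraries lay close together, and sham replicate 2 was the lowest of all. The mean of 1.48 ± 0.014 was 2.53 times the sham mean of 0.587 ± 0.14 (SD, n = 3 each). This gave a log2 fold change of 0.88 (standard error 0.14, limma adjusted p = 0.0015) and of 1.36 with limma-voom. By limma-voom Ccbe1 was a DEG too, beside 6.92% of the 16358 genes so tested (4.41% as higher DEGs). It passed that threshold with a pseudocount of 0.1 (1.23) and after scaling to TPM (1.10) as well. Fibroblasts also make Ccbe1. The summed level of 7 fibroblast markers was 4040 to 4050 FPKM in the BPVB group and 3560 to 3580 in the sham group, with 4 genes higher and 2 lower, and none was at 0. The collagen gene Col1a1, the highest of them, had a log2 fold change of 0.36. The part of this change in the rise of Ccbe1 was not tested.

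Reln (NCBI Gene 24718) encodes reelin, a large secreted glycoprotein best known from the brain and also released by lymphatic endothelium to the smooth muscle of collecting vessels. Its FPKM was 1.04, 1.2 and 0.959 after banding against 0.528, 0.510 and 0.590 after sham surgery, without overlap. The BPVB mean of 1.06 ± 0.12 was 1.96 times the sham mean of 0.543 ± 0.042 (SD, n = 3 each). This was a log2 fold change of 0.58 (standard error 0.13, limma adjusted p = 0.0083), and limma-voom gave 0.96 (standard error 0.16). Reln is a long transcript, so that 182 to 476 fragments per library stood behind these small FPKM. Neurons also make reelin. The 7 neuron markers summed to 18.6 to 22.2 FPKM in the BPVB group and 30.5 to 34.0 in the sham group, with 5 genes lower and 0 higher. Stmn2, the highest of them, did not pass (-0.17), and Snap25, a gene of synaptic vesicle release, fell by 1.64 on the log2 scale. Elavl4, an RNA-binding protein gene of neurons, had 0 fragments in BPVB replicate 3. The part of neurons in the level of Reln was not tested.

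Mmrn1 (NCBI Gene 500152) encodes multimerin 1, a secreted protein of lymphatic endothelium and platelets. Its FPKM was 8.62, 9.5 and 8.76 after banding against 4.34, 3.31 and 3.62 after sham surgery. The groups did not overlap. The mean rose from 3.76 ± 0.52 (SD, n = 3) to 8.96 ± 0.47 (SD, n = 3), a ratio of 2.38. The log2 fold change of 1.16 (standard error 0.10, 95% confidence interval 0.92 to 1.39, adjusted p = 4.6e-05, limma) was above 1 under all 16 alternatives tried, from 1.07 to 1.26. The platelet gene Pf4 had 210 ± 7.8 FPKM after banding against 209 ± 11 after sham surgery (SD, n = 3 each). The 8 measured platelet and megakaryocyte markers summed to 219 to 234 FPKM in the BPVB group and 221 to 241 in the sham group. Most of this sum was Pf4. Itga2b was lower (log2 fold change -0.55), and no marker was higher. Ppbp, a platelet chemokine gene, had 0 fragments in BPVB replicate 1 and 2 to 5 in the other libraries. The part of platelets in the rise of Mmrn1 was not tested.

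**Figure D1:**
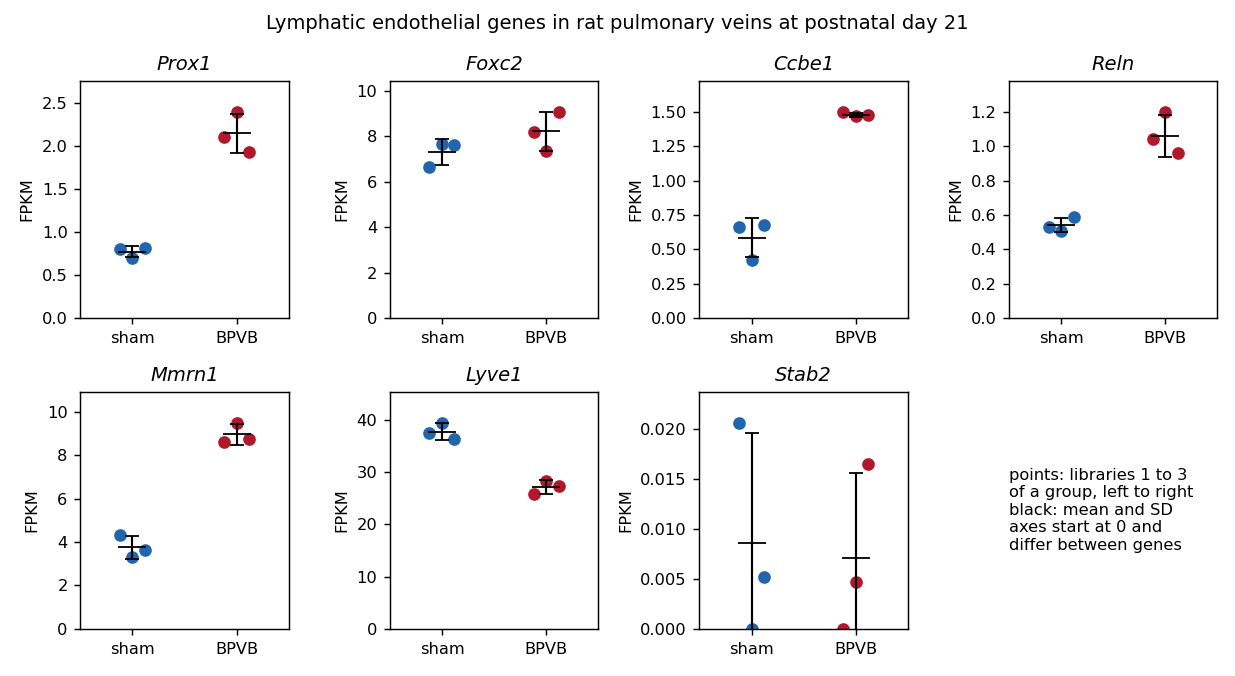
FPKM of the 7 lymphatic endothelial genes in each library, with points for the 3 sham (blue) and 3 BPVB (red) libraries and black marks for the mean and SD. The BPVB points lie above the sham points for Prox1, Ccbe1, Reln and Mmrn1 and below them for Lyve1, whereas they overlap for Foxc2 and Stab2.

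Lyve1 (NCBI Gene 293186) encodes a receptor for hyaluronan, the long sugar polymer of the matrix, on lymphatic capillaries. Its FPKM was 25.7, 28.3 and 27.3 after banding against 37.4, 39.4 and 36.3 after sham surgery. It was the highest gene of the group and the member that fell. The mean was 27.1 ± 1.3 (SD, n = 3) against 37.7 ± 1.6 (SD, n = 3), 1.39 times as high in the sham group. On the log2 scale the change was -0.47 (standard error 0.052, 95% confidence interval -0.59 to -0.35, adjusted p = 1.6e-04, limma) and ranged from -0.50 to -0.43 over the alternatives. At least 2107 fragments per library stood behind it.

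Lyve1 also marks resident macrophages around vessels, and 8 macrophage markers were measured. They summed to 76.6 to 77.6 FPKM in the BPVB group and 61.8 to 65.0 in the sham group, with 3 genes higher, 1 lower and none at 0. Csf1r, the receptor of the macrophage growth factor, had a log2 fold change of 0.64, Mrc1 of 0.62 and the lysosomal gene Cd68 of 1.09. Timd4, a phagocytic receptor of resident macrophages, was the marker that fell with Lyve1 (5.40 ± 0.46 against 9.05 ± 1.8 FPKM, SD, n = 3 each, log2 fold change -0.68, adjusted p = 0.0043, limma). Folr2 (0.20, adjusted p = 0.28) and Cd163 (-0.07, adjusted p = 0.74), which resident macrophages also carry, did not pass. The part of macrophages in the fall of Lyve1 was not tested.

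Stab2 (NCBI Gene 282580) encodes stabilin 2, a receptor that clears hyaluronan in the sinusoids of liver, spleen and lymph nodes. Its fragments numbered 0, 1 and 4 after banding against 4, 0 and 1 after sham surgery, or 5 in each group. A count of 0 allows up to 3 fragments, so a difference was not detectable at this depth. Limma-voom, whose filter it passed, gave a 95% confidence interval of -3.19 to 2.81 for its log2 fold change (adjusted p = 0.94). Of the sinusoidal markers, Stab1, which macrophages also express, had 15.2 ± 0.49 FPKM after banding against 13.6 ± 0.41 after sham surgery (SD, n = 3 each, adjusted p = 0.059 with limma and 0.0052 with limma-voom), and Oit3 was below the filter. The 5 measured sinusoidal markers summed to 19.5 to 22.5 FPKM in the BPVB group and 16.5 to 17.9 in the sham group, with 2 of the 4 tested genes higher (Fcgr2b and Dnase1l3).

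**Figure D2:**
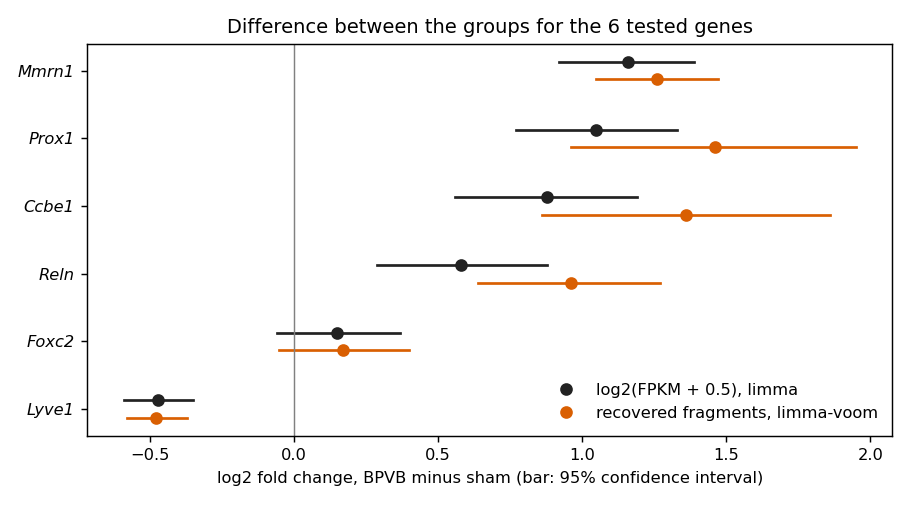
Log2 fold change of the 6 tested genes with 95% confidence intervals, from limma on log2(FPKM + 0.5) (black) and from limma-voom on the recovered fragments (orange). Mmrn1 (1.16 and 1.26) and Lyve1 (-0.47 and -0.48) hardly differ between the methods, whereas the low genes Prox1, Ccbe1 and Reln lie further from 0 without the pseudocount.

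FPKM allows the levels of different genes to be set side by side. In the sham group the order was Lyve1, Foxc2, Mmrn1, Prox1, Ccbe1, Reln and Stab2, and Ccbe1 and Reln were the neighbours whose values overlapped. In the BPVB group Mmrn1 stood above Foxc2, with overlapping values, and the other neighbours did not overlap. Lyve1 led in both groups. Since Prox1 rose and Lyve1 fell, the FPKM ratio of Prox1 to Lyve1 was 0.0824, 0.0846 and 0.0709 after banding against 0.0215, 0.0178 and 0.0224 after sham surgery. The ratio of Mmrn1 to Lyve1 was 0.321 to 0.336 in the BPVB group and 0.0840 to 0.116 in the sham group.

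The exact permutation test of the FPKM of a single gene, two-sided, gave p = 0.1 for each of the 5 genes without overlap, which is the smallest p that 3 rats against 3 allow. Of all genes tested, 45.6% had groups that did not overlap, 25.2% with the BPVB group above and 20.5% with it below.

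Blood endothelial markers fell or did not pass the test. Of 12 measured markers, 7 fell and 0 rose (median log2 fold change -0.15, beside 0.02 over all genes tested). Their sum was 1300 to 1320 FPKM in the BPVB group and 1470 to 1480 in the sham group, and none was at 0. Vwf, the von Willebrand factor gene, had 379 ± 3.5 against 387 ± 1.9 FPKM (SD, n = 3 each) and did not pass with limma (adjusted p = 0.29), whereas it was lower with limma-voom (adjusted p = 8.7e-04, log2 fold change -0.03). Pecam1, an adhesion molecule of all endothelium, and Cdh5, the cadherin of endothelial junctions, fell with log2 fold changes of -0.17 and -0.34. Of 6 markers of blood capillaries, 4 fell and 1 rose (Plvap, 0.45), and their sum was 240 to 252 FPKM against 274 to 280. Cd300lg, a surface gene of capillaries, fell the most, from 14.5 ± 0.54 to 1.81 ± 0.48 FPKM (SD, n = 3 each, log2 fold change -2.72). Set against the geometric mean of the 12 blood endothelial genes, Prox1 had a log2 ratio of -5.15, -5.01 and -5.29 after banding against -6.78, -6.99 and -6.74 after sham surgery. The mean difference was 1.68 for Prox1, 1.58 for Ccbe1, 1.47 for Mmrn1, 1.18 for Reln, 0.38 for Foxc2 and -0.27 for Lyve1. These ratios carry no pseudocount and were not tested. Genes of all endothelium, such as Pecam1, are among the 12, so the ratios do not set lymphatic against blood vessels alone. The geometric mean itself was 75.2 to 77.0 FPKM after banding and 86.7 to 89.0 after sham surgery, so that a gene with a constant FPKM has a higher ratio after banding.

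Of the other cell types that make some of these genes, cardiomyocytes of the myocardial sleeve also express Prox1. Their 8 markers summed to 10800 to 11200 FPKM in the BPVB group and 14500 to 14900 in the sham group, with 5 genes lower and 3 higher. Their log2 fold changes ranged from -0.92 (Ttn) to 0.38 (Ryr2), and Myl7, the atrial myosin light chain gene and the highest of them, fell by 0.59 on the log2 scale. The part of cardiomyocytes in the level of Prox1 was not tested. Markers of alveolar epithelium rose, as did Prox1, Ccbe1, Reln and Mmrn1 but not the other members. The alveolar markers summed to 644 to 699 FPKM in the BPVB group and 138 to 143 in the sham group, with 9 of 10 genes higher, 1 lower and none at 0. Sftpc, the surfactant gene of alveolar type 2 cells, had 390 ± 22 against 36.6 ± 1.4 FPKM (SD, n = 3 each). The lung holds many lymphatic vessels, and the part of lung tissue in the rise of Prox1, Ccbe1, Reln and Mmrn1 was not tested. Lymphocyte markers summed to 3.09 to 3.32 FPKM in the BPVB group and 2.63 to 4.32 in the sham group, and the lowest adjusted p among the 6 tested genes was 0.063 (Cd3d, limma). The part of lymphoid tissue in these results was not tested. Mesothelial markers summed to 4.89 to 6.81 FPKM against 4.76 to 6.82, with 1 gene higher and 2 lower. Krt19, the highest of them, had 4.73 FPKM after banding against 2.14 after sham surgery (log2 fold change 0.99). Msln (-0.73) and Upk3b (-0.96) fell, Lrrn4 (-0.46) did not pass, and Wt1 was below the filter.

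**Figure D3:**
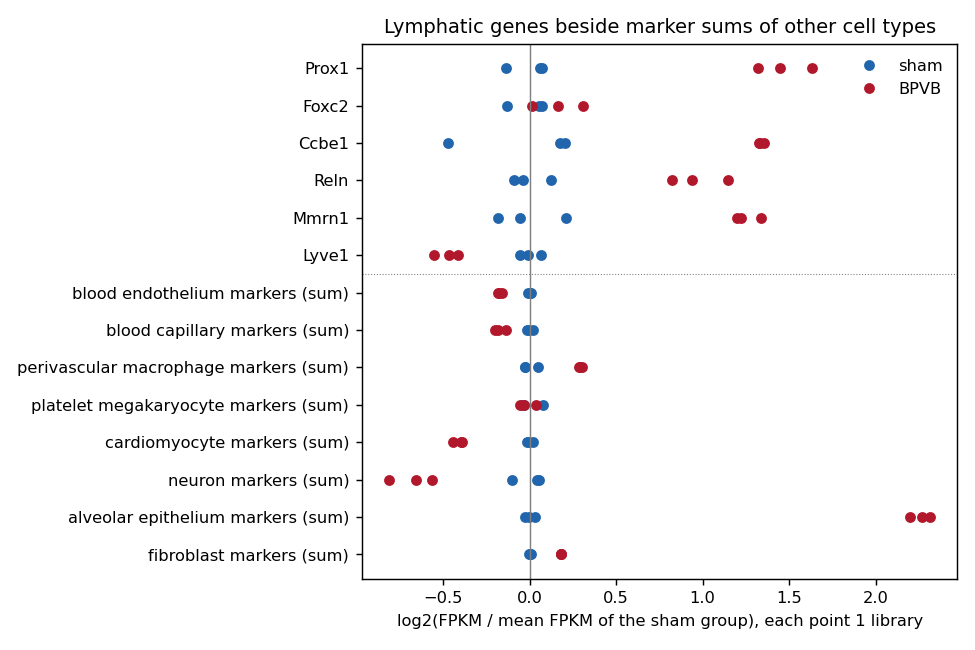
Level of 6 lymphatic endothelial genes and of summed markers of other cell types in each library, as log2 of the FPKM over the mean of the sham group. Alveolar markers lie furthest to the right in the BPVB group (2.2 to 2.32), followed by Prox1 (1.32 to 1.63), while Lyve1, cardiomyocyte and neuron markers lie to the left of 0.

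The genes of the VEGF-C pathway, which drives lymphatic growth, were measured beside its cofactor Ccbe1. In a list of 47 other lymphatic genes, the 7 genes of ligands, processing enzymes and receptors of this pathway did not pass the test in either direction. The ligand gene Vegfc had 9.54 ± 0.83 FPKM after banding against 8.22 ± 0.67 after sham surgery (SD, n = 3 each, log2 fold change 0.20, adjusted p = 0.11, limma). The second ligand gene Vegfd had 3.36 ± 0.47 against 2.47 ± 0.30 FPKM (SD, n = 3 each, log2 fold change 0.37, adjusted p = 0.056, limma). The receptor gene Flt4 had 5.17, 4.56 and 4.95 FPKM after banding against 4.88, 4.09 and 4.47 after sham surgery, so that the groups overlapped (log2 fold change 0.12, 95% confidence interval -0.10 to 0.33). The receptor stood above Prox1 and below Mmrn1 in mean level after banding. The coreceptor gene Nrp2 had a log2 fold change of -0.12 (adjusted p = 0.23) and the protease gene Adamts3 of -0.04 (adjusted p = 0.90).

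Among 8 transcription factors that set or keep lymphatic fate, 3 fell and 5 did not pass. Sox18, which acts upstream of Prox1 in the embryo, fell from 63.1 ± 1.7 to 43.0 ± 1.9 FPKM (SD, n = 3 each, log2 fold change -0.55, adjusted p = 2.3e-05, limma). Gata2, a factor of lymphatic valves, and Foxc1, the relative of Foxc2, each had a log2 fold change of -0.36. Nr2f2, the vein factor that also acts upstream of Prox1, had 32.4 ± 1.1 against 34.8 ± 0.46 FPKM (SD, n = 3 each, log2 fold change -0.10, adjusted p = 0.093 with limma and 0.036 with limma-voom). Sox18 and Gata2 are also made by blood endothelium.

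The surface and secreted markers held the largest rises of the list, with 6 of 11 genes higher and 2 lower. The FPKM of Ccl21 was 134, 137 and 144 after banding against 30.8, 30.3 and 34.5 after sham surgery. The groups did not overlap, with a ratio of means of 4.35 and a log2 fold change of 2.11 (standard error 0.053, adjusted p = 2.8e-08, limma). Pdpn had 13.2, 16.6 and 15.5 FPKM after banding against 3.40, 3.51 and 2.98 after sham surgery, a ratio of 4.58 (log2 fold change 2.04, standard error 0.10). Alveolar type 1 cells also make podoplanin, and their genes Ager, Aqp5 and Rtkn2 had log2 fold changes of 2.54, 2.52 and 1.58. Hopx, another gene of these cells, fell (-0.26), but it had 70.9 FPKM in the sham group, where Ager had 9.45. The part of alveolar cells in the rise of Pdpn was not tested. Scn3b, a sodium channel subunit gene, rose by 1.03 on the log2 scale, and Angpt2, a ligand of the Tie receptors in lymphatic and blood vessels, by 0.61. The receptor genes Tie1 (-0.23) and Tek (-0.13) fell.

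Of 13 genes of lymphatic valves and junctions, 6 rose and 1 fell. The connexin genes Gja1 (log2 fold change 0.62) and Gja4 (0.53) and the fibronectin gene Fn1 (0.53) were among those higher, as was Piezo1, the stretch-gated channel (0.41). These genes are also made by smooth muscle, blood endothelium or fibroblasts. Itga9, the integrin subunit of valve leaflets, had 3.27 ± 0.13 against 3.20 ± 0.28 FPKM (SD, n = 3 each), and it did not pass. In the adrenomedullin pathway, which supports lymphatic junctions, Ramp3 rose (log2 fold change 1.31, at 29, 42 and 60 fragments after banding against 10, 11 and 11 after sham surgery). Adm (-0.41) and Ramp2 (-0.29) fell, and Calcrl had a log2 fold change of 0.01. Of 4 genes that keep blood and lymphatic vessels apart, Syk (0.44) and Lcp2 (0.62) rose and Clec1b (-0.21) fell, the last with limma (adjusted p = 0.041) but not with limma-voom (adjusted p = 0.21). Syk and Lcp2 act in leukocytes as well. Of the 8 macrophage markers, Csf1r, Mrc1 and Cd68 were higher, Timd4 was lower and 4 did not pass. The part of macrophages in the rise of Syk and Lcp2 was not tested.

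Over the whole list of 47 genes, 15 rose, 9 fell and 23 did not pass, or 31.9% higher and 19.1% lower, beside 17.2% and 14.3% of all genes tested. On leaving out single libraries, 14 to 16 were higher and 5 to 7 lower, with 5 lower without BPVB replicate 3. The median log2 fold change was 0.12, beside 0.02 over all genes tested. After scaling to TPM the split was 17 higher and 6 lower, while that of all genes tested moved from 2605 higher and 2170 lower to 2996 and 1880. Scaling by the median of ratios gave 15 higher and 10 lower, with 2362 and 2454 of all genes tested. A separate list of 29 genes was taken from the GO terms on lymphatic vessels in the deposited annotation, without the members, and 12 of its genes are also in the first list. Of these 29, 6 were higher and 4 lower, or 20.7% and 13.8%, with a median of 0.03. The split was 6 and 6 with the median of ratios and 5 and 5 after quantile normalization. Pdpn, Nppb (log2 fold change 1.59) and Syk rose the most, and Sox18, Heg1 (-0.40) and Foxc1 fell the most. Nppb encodes the natriuretic peptide of stretched heart muscle.

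**Figure D4:**
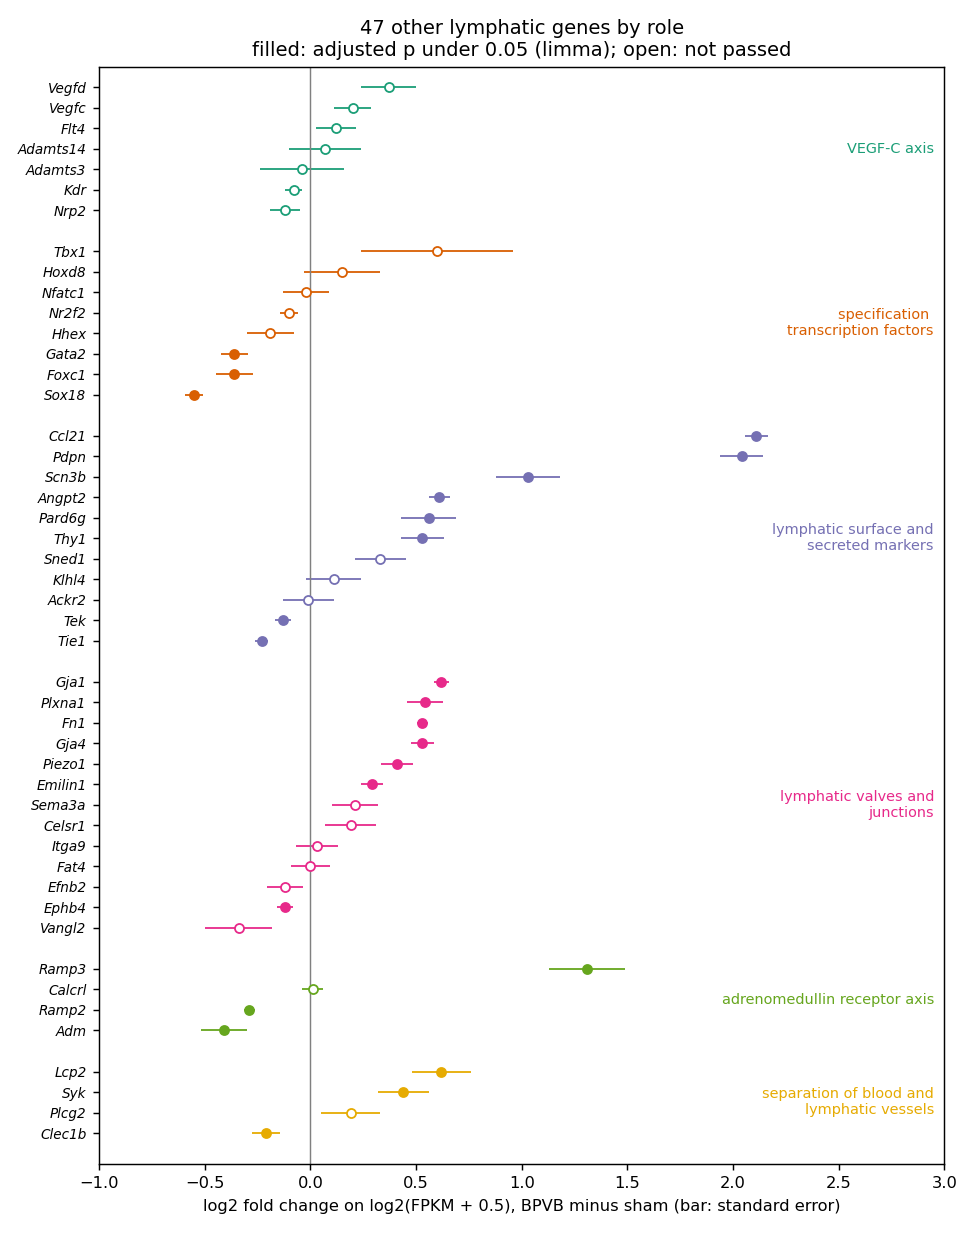
Log2 fold change with standard error of 47 other lymphatic genes grouped by role, filled where the adjusted p was under 0.05 (limma). Ccl21 (2.11) and Pdpn (2.04) stand far to the right, and the 7 genes of the VEGF-C axis are all open.

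The genes whose pattern over the 6 libraries was most like that of Prox1 were sought among the 12157 genes whose FPKM averaged 1 or more, by the root mean square difference of log2(FPKM + 0.5) centred on the mean of each gene. The nearest 5 were Dpep1 (0.0599), Laptm5 (0.0677), Itga8 (0.0679), Aox3 (0.0765) and Bgn (0.0814). Their mean FPKM in the BPVB group ranged from 3.9 (Aox3) to 1060 (Bgn). The 5 genes nearest to Lyve1 were Ccdc85b (0.0156), Akr1b1 (0.0280), Txn2 (0.0284), Iftap (0.0285) and RGD1302996 (0.0307). The 6 libraries form 2 groups, so that a gene with a like difference between the groups ranks high by this measure.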

How the data were processed

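Bulk RNA-seq values of the pulmonary veins (PVs) of 3 BPVB and 3 sham-operated rats were used. The authors deposited FPKM per gene and library. Per the methods, reads were cleaned (fastp), aligned (HISAT) and assigned to genes (HTSeq-count). The submitters' processing notes also list HISAT2 2.0.5, StringTie 1.3.3b, featureCounts 1.5.0-p3 and DESeq2 1.20.0. The genome build is not given in the sources used here. The library kit is VAHTS Universal V6 in the paper and NEBNext Ultra in the labels.

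Groups were compared with limma 3.58.1 (R 4.3.3, eBayes with a trend, two-sided, Benjamini-Hochberg adjustment) on log2(FPKM + 0.5). The 15150 genes whose FPKM averaged 0.1 or more over all libraries were tested. The scripts were tested on simulated data. Fragments per gene were recovered as the smallest whole numbers that gave the FPKM ratios between libraries. Such whole numbers were found (relative tolerance 1e-09) for 100.0% of genes. In a simulated table, they were the true fragments for 98.2% of 2991 genes. The recovered fragments were used for depth and for limma-voom on the 16358 genes with 10 or more in total. PCR copies cannot be told from separate molecules, so a limit of 3 fragments for a count of 0 covers counting error only. Figures were drawn with matplotlib 3.10.9.

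The members and gene lists were chosen with earlier results of these data known, and the lists of hyaluronan, reelin and VEGF-C processing genes after the values of the members were seen. From the lymphatic and GO lists, genes past the threshold with the largest changes in each direction (up to 6) and 9 genes set by name were named, and from each marker list up to 3 of the highest genes. Of the genes planned for the lists, 3 are not reported here and were left out of the counts, and a further 4 markers were not analysed here. Markers and pathway genes named beyond these were chosen after their values were seen. The alternatives were 2 pseudocounts, 2 filters, 3 scalings, a replicate block, robust eBayes, limma-voom and leaving out each of the 6 libraries.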

Additional observations from a re-analysis of the deposited data

How the results depend on the processing

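Prox1, Ccbe1, Reln, Mmrn1 and Lyve1 held their direction and their calls, and Foxc2 did not pass, in all 95 alternative values of single genes (limma or limma-voom). Reln fell below the stricter filter (mean FPKM of 1), which left 4 members called. Prox1 and Ccbe1 passed that filter only through the BPVB group (sham means 0.774 and 0.587 FPKM). Their values under it are therefore no sign of stability. Of the members, 2 were DEGs, but 1 under a pseudocount of 1 and 1 after quantile normalization, where Prox1 fell short of the fold change threshold. With Ccbe1 added, 3 were DEGs under a pseudocount of 0.1, after scaling to TPM and with limma-voom. Leaving out single libraries gave 1 to 2 (1 without BPVB replicate 2). Over all genes, 496 DEGs were found, against 325 with a pseudocount of 1, 901 with a pseudocount of 0.1 and 1132 with limma-voom. A smaller pseudocount shrinks low genes less by construction. Leaving out each library gave 20 to 22 other lymphatic genes past the threshold (24 with all libraries) and 9 to 12 GO lymphatic genes (10 with all). With the replicate number as a block, 5 members, 22 other lymphatic genes and 497 DEGs were called, and no call of a member changed. Libraries with the same number did not deviate together enough for a pairing (r from 0.014 to 0.025, with 0.1 required), although all 6 correlated best with their own number. Depth limits Stab2 most.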

Other observations

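Lists on hyaluronan, reelin signalling and VEGF-C processing were written after the values of the members had been seen, and they are given as descriptions. Of 14 genes that make, cleave or bind hyaluronan, the ligand of Lyve1 and Stab2, 13 were tested, of which 3 rose and 2 fell (limma, threshold as for the members), or 23.1% and 15.4%, beside 17.2% and 14.3% of all genes tested. The synthase gene Has1 had 1.58 ± 0.29 against 0.978 ± 0.077 FPKM in the BPVB and sham groups (SD, n = 3 each, log2 fold change 0.48, adjusted p = 0.027 with limma and 0.081 with limma-voom), whereas Has2 (0.04) and Has3 (0.02) did not pass. Cemip, which encodes a hyaluronan-binding protein needed for its breakdown, was higher (log2 fold change 0.89), and the hyaluronidase gene Hyal2 was lower (-0.33). The main hyaluronan receptor gene of leukocytes and mesenchyme, Cd44, had 21.6 ± 1.2 against 21.0 ± 0.50 FPKM and did not pass (log2 fold change 0.04). Hmmr, a hyaluronan-binding protein of the mitotic spindle, was higher (1.25).

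The reelin receptor genes Vldlr (log2 fold change 0.07) and Lrp8 (0.04) and the adaptor gene Dab1 (-0.22) did not pass the test, beside the rise of Reln itself. Of the genes listed beside Ccbe1, Svep1 (0.04), which carried a GO term on lymphatic vessels, and Adamts14 (0.07) did not pass. Adamts2 (0.17) and Ctsd, the lysosomal protease cathepsin D (0.22), were higher.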
